A study of Arabidopsis thaliana with 24 samples.

Results

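The genes described here had a higher signal in the 3-week aerial parts of Arabidopsis thaliana than in leaf blades of 4 and 5 weeks. Their blade signals were lower only by comparison, since 53 of them lay above 1000 on all 16 blade arrays. They were chosen from measured values on the scale log2(signal + 16). The lowest of the 8 arrays at 3 weeks (3W) had to lie at least 1.5 above the highest of the 16 arrays at 4 weeks (4W) and 5 weeks (5W), and the 5W mean had to differ from the 4W mean by less than 1. The rule held for 431 of the 22746 probe sets on the array, or 1.89%. A probe set is a group of short probes that measures 1 transcript, or several that share its sequence. Of these 431 members, 232 are annotated to a single gene and 9 to several genes, while 190 have no gene name here. A gene symbol was at hand for 40, and the other genes are written with their locus tags, with no role given. Since the rule used the 3W, 4W and 5W values, differences between harvests of the members are given as descriptions, with no test. The rule did not compare the solutions, and feeding was tested. It does bound how far any array may lie, fed arrays included, so feeding results of members are not independent of it.

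The series fed plants with glutathione and measured their transcripts on Affymetrix arrays. All plants were wild type of the ecotype Columbia-0 in pots of 3, watered from below once a week with 25 ml of 1 mM GSSG (oxidized glutathione), 2 mM GSH (reduced glutathione), 3 mM NH4NO3 (so written in the sample titles, while the protocol in the labels swaps its digits) or plain water. At 3W the whole aerial part with the shoot apex was taken, and at 4W and 5W the blades of the fully expanded leaves, the second and the third from the top. Each of the 12 groups, 4 solutions by 3 harvests, had 2 arrays, and that number limits the precision of every value. The 3W samples differ from the blades in age, organ and harvest at once, so age, organ and harvest cannot be told apart. In such bulk samples neither can fewer cells of a type and less RNA per cell.

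The shoot apex holds the meristem, whose dividing cells give rise to all leaves, and young leaf primordia in which cells still divide and then expand. Dividing cells make kinases, checkpoint proteins, kinesins and chromatin proteins for mitosis, and growing cells loosen their walls with expansins and wall-modifying enzymes. Cells stop dividing as a leaf matures, and the fully expanded blade is given over mainly to photosynthesis. ER bodies are stores of beta-glucosidase in the endoplasmic reticulum that are known from seedlings and roots of Arabidopsis and its relatives.

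Every array had about the same mean signal, between 500.044 and 500.055 after trimming 2% at each end. The arrays' median signals ran from 185 to 192 at 3W, from 154 to 178 at 4W and from 161 to 169 at 5W. For the GAPDH control, the signal near the 3' end over that near the 5' end, a sign of RNA integrity, was 3.71 to 5.27 on the 4 replicate 2 arrays at 4W and 2.47 to 3.95 on the other 20. The lowest of these 4, with GSH (3.71), lay within the range of the other 20. For the actin control the ratio was 10.7 to 29.5 on the other 20 and 15.3 to 19.9 on these 4. On log2(signal + 16), the median over the members was 6.40 to 6.84 on those 4 arrays and 6.57 to 6.70 on the 4 replicate 1 arrays at 4W, so over all members they did not stand apart. They did for members bright in blades, whose median was 10.95 to 11.12 on the replicate 2 arrays and 11.27 to 11.47 on the replicate 1 arrays. The median over members of replicate 2 minus replicate 1 at 4W was 0.00 with GSSG, -0.29 with GSH and -0.15 with NH4NO3, against -0.17 with water, while over all probe sets it was 0.08, 0.02 and 0.03, against 0.10 with water.

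Few markers of the apex could be read, since the annotation at hand gives a single gene symbol to a small share of the probe sets. The stem cell peptide gene CLV3 had a signal from 4.45 to 38.6 with a median of 13.7 at 3W, from 1.78 to 8.53 with a median of 3.76 at 4W and from 2.098 to 23.1 with a median of 4.81 at 5W, so its groups overlapped at low signal, and the axillary meristem gene LAS ran from 15.0 to 89.3 with a median of 50.9, from 23.5 to 180.0 with a median of 45.8 and from 5.01 to 80.4 with a median of 45.1. Of the dividing-cell markers, AUR1 is a member and the replication licensing gene PRL (MCM7) was higher at 3W but fell outside the rule for its leaf age difference of -1.35. The stomatal lineage genes SPCH and MUTE, which act in young epidermis, had signals from 78.1 to 208 with a median of 161 and from 45.1 to 103 with a median of 56.1 at 3W, and at most 33.7 and 44.5 in blades. Summed over the mesophyll markers RCA, PRK and SBPASE, which serve carbon fixation, the signal was 17905 to 26624 at 3W, 58145 to 87605 at 4W and 40003 to 56982 at 5W. The apex markers measured thus do not settle how much of the 3W sample was meristem, while stomatal lineage and dividing-cell markers were higher there.

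**Figure D1:**
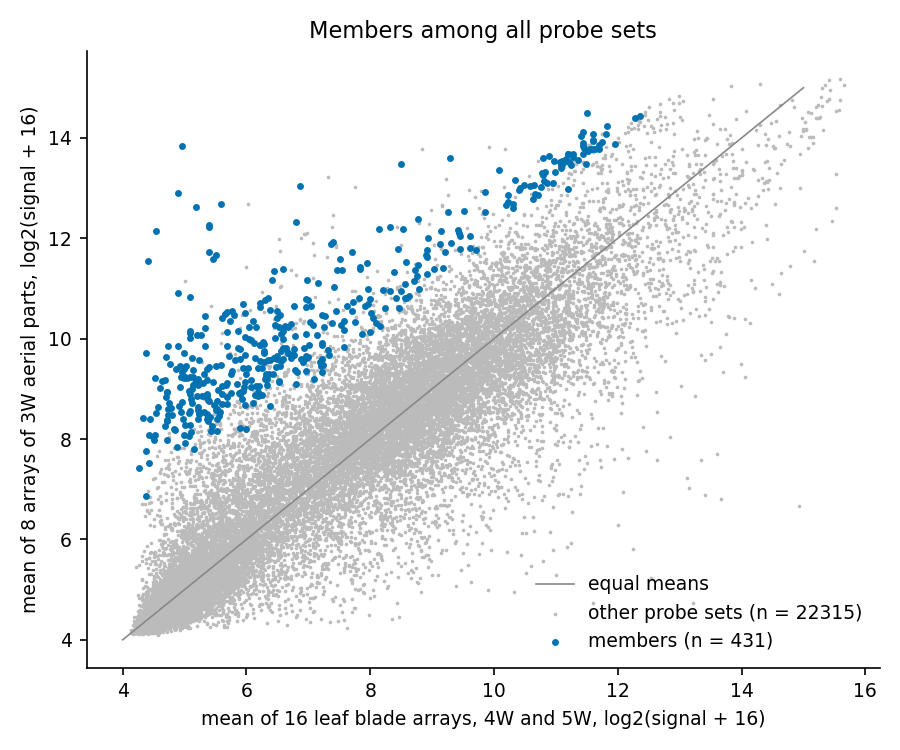
Mean log2(signal + 16) of each probe set on the 16 leaf blade arrays (horizontal) and on the 8 arrays of 3W aerial parts (vertical), with the 431 members in blue and the other probe sets in grey; the line marks equal means. Members lie above the line at all blade levels, and a compact group of them is bright on both axes.

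On log2(signal + 16), the median over members ran from 9.85 to 10.02 on the 8 arrays at 3W, from 6.40 to 6.84 at 4W and from 6.19 to 6.55 at 5W. The margin between the lowest 3W array and the highest blade array had a median of 1.98 and reached 7.61. It was at least 2 for 208 members, at least 3 for 54 and at least 5 for 8. Over all probe sets, 3475 (15.3%) had every 3W array above every blade array. Just inside the margin of 1.5 lay AT5G57410 (1.503), AT1G16520 (1.505), AT2G38370 (1.51), AT4G17470 (1.51) and AT3G18190 (1.52). Just outside it lay AT1G06000 (1.498), AT5G15520 (1.496), AT1G69400, AT3G16080 and AT3G11250 (1.49). A further 66 probe sets met the margin but not the condition on leaf age, 63 of them lower at 5W and 3 higher. Among them were the H2B histone gene HTB2 (5W minus 4W -1.52) and 3xHMG-box2 (-1.42), relatives of members named below. Limma called 59.4% of all probe sets different between 3W and blades, 31.5% higher and 27.9% lower. After centring on array medians the split was 5967 higher and 8258 lower, in place of 7176 and 6344, because centring moved the median of all probe sets by 0.17. The members' lowest difference of means, 1.80, became 1.62 under it.

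Genes of chromosomes and cell division made up 16 of the 40 named members, in a grouping by role that was made after the members were known and is no test of enrichment. All 3 Aurora kinases, which drive chromosome segregation and orient division planes, were members. AUR1 had a signal from 1032 to 1368 with a median of 1204 at 3W, from 67.4 to 141 with a median of 108 at 4W and from 31.9 to 115 with a median of 70.7 at 5W. AUR2 ran from 959.7 to 1239 with a median of 1092 at 3W, from 3.31 to 73.3 with a median of 50.8 at 4W and from 21.5 to 81.4 with a median of 40.6 at 5W, and AUR3 from 250.1 to 339 with a median of 291 at 3W, from 4.77 to 49.9 with a median of 22.6 at 4W and from 1.44 to 24.2 with a median of 9.96 at 5W. Each kinase was thus several times brighter on its dimmest 3W array than on its brightest blade array, with AUR2 and AUR3 under 100 on all 16 blade arrays. WYR, an INCENP-like partner of Aurora kinases, ran from 305 to 433 with a median of 391 at 3W and from 1.54 to 61.6 with a median of 23.8 in blades. The 3 measured genes with a BUB symbol, which act in the spindle checkpoint, were members too. That checkpoint delays segregation until chromosomes are attached, and its genes without a symbol here were not looked at. BUB3.1 ran from 1206 to 1665 with a median of 1518 at 3W, from 146 to 278 with a median of 179.5 at 4W and from 145 to 239.5 with a median of 192 at 5W, a fold of 3W over blades of 7.61. BUBR1 ran from 294 to 426 with a median of 359 at 3W, from 5.52 to 49.0 with a median of 30.9 at 4W and from 3.82 to 29.5 with a median of 9.43 at 5W, and its neighbour in function BUB3.2 ran from 193 to 347 with a median of 285 at 3W and from 1.00 to 56.8 with a median of 16.9 in blades.

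Genes of the chromosomes themselves stood beside them. HTR12, the centromeric histone H3, ran from 274 to 371 with a median of 337 at 3W and from 2.75 to 80.9 with a median of 34.6 in blades. TOPII, the topoisomerase that untangles sister chromatids, had a signal from 1185 to 1834 with a median of 1546 at 3W, from 66.3 to 183 with a median of 92.4 at 4W and from 17.4 to 58.2 with a median of 49.9 at 5W. Its 5W arrays all lay below its 4W arrays, with a 5W minus 4W difference of -0.94. 3xHMG-box1, whose protein binds mitotic chromosomes, ran from 603 to 1143 with a median of 917 at 3W and from 28.4 to 88.1 with a median of 74.2 in blades. HTB1, an H2B histone, kept a measurable blade signal: it averaged 2631 ± 299 at 3W (SD, n = 8) and 413 ± 68.5 in blades (SD, n = 16), a fold of 6.37. ASF1B, a histone chaperone, ran from 772 to 1283 with a median of 929 at 3W, from 130.1 to 229 with a median of 169 at 4W and from 58.5 to 175 with a median of 102 at 5W. Every blade array of ASF1B lay far below its 3W range, and its blade ages overlapped. The remaining genes of this group were KINESIN-12B, a motor of the phragmoplast that builds the new cell wall (from 667 to 908 with a median of 750.3 at 3W and from 2.14 to 66.3 with a median of 16.2 in blades), the cytokinesis kinase gene FU (from 839.8 to 1664 with a median of 1251 at 3W and from 27.2 to 143 with a median of 80.0 in blades), the ubiquitin-conjugating enzyme gene UBC20 (from 1558 to 2291 with a median of 1691 at 3W and from 54.1 to 168 with a median of 119 in blades) and the TSO1-like gene SOL1 (from 654 to 800.4 with a median of 786 at 3W and from 35.0 to 151 with a median of 63.8 in blades). KINESIN-12B had the largest difference of means in the group, 4.50 on log2(signal + 16), and HTB1 the smallest, 2.63. All 16 had no overlap between 3W and blades, as the rule requires, and 15 of 16 were lower at 5W than at 4W, with a median of -0.43. Without the 4W replicate 2 arrays 15 of 16 were also lower, with a median of -0.44.

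**Figure D2:**
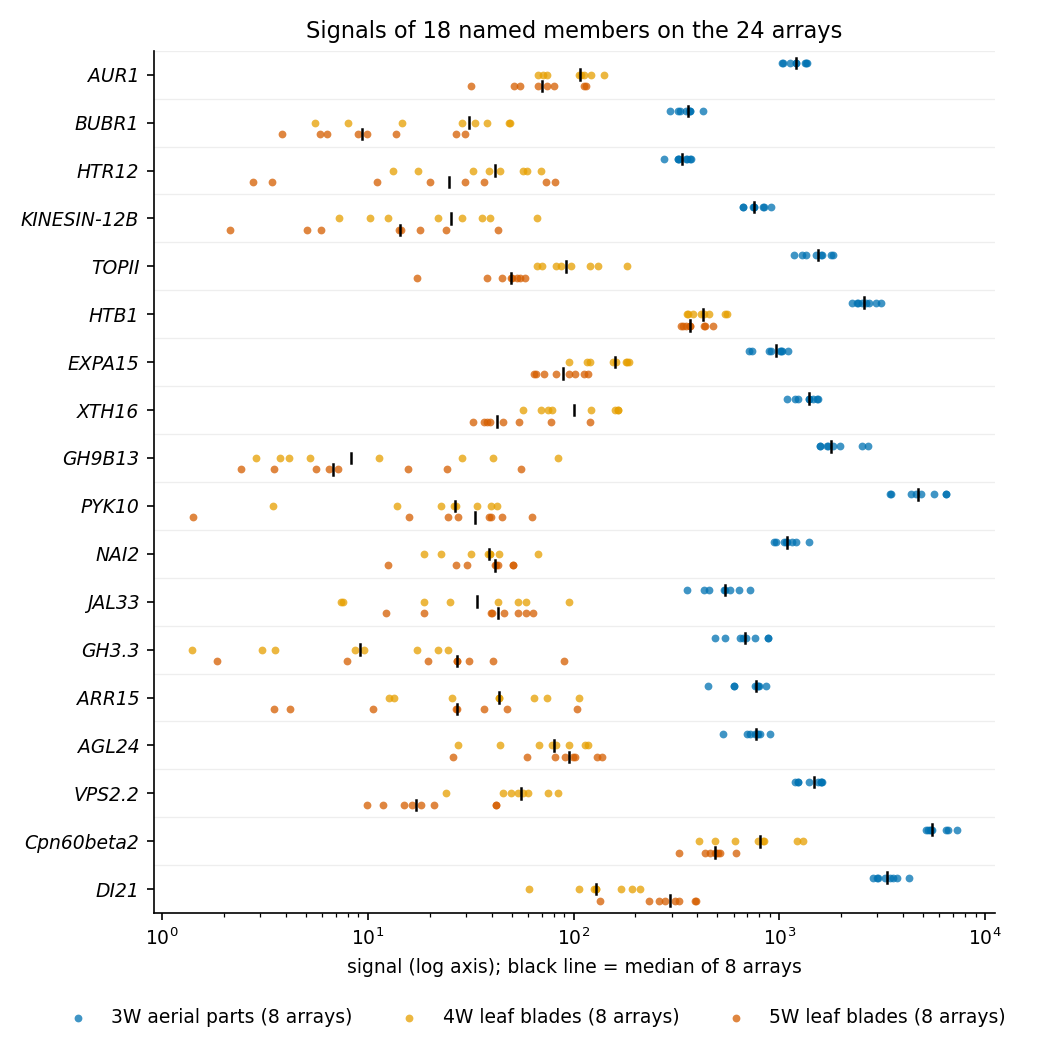
Signal of 18 named members on each of the 24 arrays on a log axis, with 3W aerial parts in blue above 4W blades in yellow and 5W blades in orange, and a black line at the median of 8 arrays. In each gene all 3W arrays lie to the right of all blade arrays, and blade values under about 100 scatter widely.

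The other measured genes of the cell division list of this report, chosen with earlier results known, moved in both directions between 3W and blades. Of 4 that are no members, 3 were higher at 3W by limma and 1 was lower. ICU2, the catalytic subunit of DNA polymerase alpha, was higher (2.43 ± 0.18 SE, adjusted p = 2.83e-10, where SE is the standard error of a difference on log2(signal + 16)), and so was TSO1 (1.66 ± 0.12 SE, adjusted p = 8.67e-11). KEU, a protein of membrane fusion in cytokinesis, was lower (-0.56 ± 0.08 SE, adjusted p = 4.9e-06). All 7 non-members of the DNA replication and histone list were higher, led by HTB2 (3.53 ± 0.11 SE, adjusted p = 3.75e-16) and PRL (3.51 ± 0.13 SE, adjusted p = 5.63e-15). The 4 measured H2B genes had differences from 1.55 (HTB11) to 3.53 (HTB2), and HTB1 alone met the rule.

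Of 5 cell wall members, GH9B13, a glycosyl hydrolase of the endoglucanase family, had the widest margin, 3.99. It had a signal from 1572 to 2710.2 with a median of 1782 at 3W, from 2.85 to 84.1 with a median of 8.26 at 4W and from 2.43 to 55.6 with a median of 6.81 at 5W. Its blade values spread over more than an order of magnitude at low signal, and 1 array at 4W was the brightest of them. XTH16, an enzyme that cuts and rejoins xyloglucan chains, ran from 1091 to 1536 with a median of 1397 at 3W, from 56.5 to 165 with a median of 100.0 at 4W and from 32.5 to 120.3 with a median of 42.4 at 5W. EXPA15, an alpha expansin, ran from 710.0 to 1102 with a median of 962 at 3W, from 95.4 to 185 with a median of 159 at 4W and from 64.2 to 118 with a median of 88.9 at 5W, and EXPB3, a beta expansin, ran from 1016 to 1362 with a median of 1170.5 at 3W, from 62.0 to 258 with a median of 86.2 at 4W and from 32.1 to 121 with a median of 72.4 at 5W. TBL39, of a family that acetylates wall polymers, ran from 624 to 839.6 with a median of 739 at 3W and from 28.2 to 102 with a median of 72.7 in blades. All 5 were lower at 5W than at 4W, with differences from -0.83 (XTH16) to -0.20 (GH9B13), and 4 of 5 were so without the 4W replicate 2 arrays. Most relatives of these genes were not members. Of 10 alpha expansins measured, 3 were higher and 2 lower at 3W by limma. The 3 include the member EXPA15, whose direction the rule fixed, and EXPA4 (1.78 ± 0.10 SE, adjusted p = 2.97e-12) was next to it in size. Of the 9 XTH enzymes, 2 were higher, among them the member XTH16 by the rule, and 1 lower. XTH32 was higher by 2.86 ± 0.18 SE, adjusted p = 1.06e-11. EXLB1, an expansin-like gene, was lower (-2.25 ± 0.13 SE, adjusted p = 6.11e-12). Of the 19 non-members of the cell wall list, 5 were higher, 6 lower and 8 did not pass.

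The 4 members of the ER body system were high at 3W and under 100 on every blade array. PYK10, the beta-glucosidase that fills ER bodies, had a signal from 3459 to 6483 with a median of 4746 at 3W, from 3.48 to 42.6 with a median of 26.4 at 4W and from 1.42 to 63.1 with a median of 33.1 at 5W, with a margin of 5.46, the largest of the named members. Its dimmest 3W array, at 3459, lay far above its brightest blade array, at 63.1. NAI2, needed for ER bodies to form, ran from 941 to 1397 with a median of 1085 at 3W, from 18.7 to 67.6 with a median of 38.8 at 4W and from 12.6 to 50.9 with a median of 41.6 at 5W. JAL22, a jacalin-related lectin of the PYK10 complex, ran from 551 to 1341 with a median of 931 at 3W and from 8.41 to 86.8 with a median of 33.5 in blades, and JAL33, of the same lectin family, ran from 356 to 717 with a median of 542 at 3W and from 7.37 to 95.1 with a median of 41.5 in blades. Between 5W and 4W the 4 genes differed by -0.01 (NAI2) to 0.19 (JAL33), 2 higher and 2 lower (4 higher without the 4W replicate 2 arrays), whereas the division and wall members with 1 exception were lower at 5W. The other measured jacalin lectins, JAL23 and JAL34, were higher at 3W by 1.51 ± 0.21 SE and 1.61 ± 0.17 SE and did not meet the rule. PYK10 stood in the root marker list of this report. The root hair expansins EXPA7 and EXPA18 of that list ran from 2.29 to 63.3 with a median of 20.3 and from 15.4 to 84.3 with a median of 46.7 at 3W and up to 60.3 and 94.4 in blades, with adjusted p = 0.586 and 0.337 for their differences by limma.

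A group of 5 members act in hormone responses or as transcription factors. The auxin-conjugating enzyme genes GH3.3 and GH3.17 had a signal from 486 to 883 with a median of 678 at 3W, from 1.4 to 24.6 with a median of 9.14 at 4W and from 1.86 to 89.4 with a median of 27.1 at 5W for GH3.3, and from 254 to 439 with a median of 303 at 3W and from 2.05 to 36.4 with a median of 6.77 in blades for GH3.17. Both were dim in blades, and GH3.3 was higher at 5W than at 4W (0.66). ARR15, a type-A response regulator that damps cytokinin signalling, ran from 449 to 866 with a median of 772 at 3W, from 12.7 to 106 with a median of 43.4 at 4W and from 3.50 to 104 with a median of 27.0 at 5W. AGL24, a MADS-box promoter of flowering, ran from 530.4 to 904 with a median of 769 at 3W, from 27.3 to 118 with a median of 80.4 at 4W and from 26.0 to 138 with a median of 95.1 at 5W, and ATMYC1, a bHLH factor, ran from 817 to 1016 with a median of 961 at 3W and from 34.2 to 141 with a median of 59.2 in blades. The blade values of ARR15 ranged from 3.50 to 106, so its level there was not resolved. Around them the lists were mixed. Of 15 other flowering and floral identity genes, 8 were higher at 3W, 1 was lower and 6 did not pass. PTL, a trihelix factor, was higher by 3.12 ± 0.20 SE, adjusted p = 1.59e-11, and ROXY1, a floral glutaredoxin, by 2.67 ± 0.26 SE, adjusted p = 1.24e-08. Of 13 auxin genes 5 were higher, 3 lower and 5 did not pass, led by the auxin synthesis gene YUC4 (2.63 ± 0.20 SE, adjusted p = 2.66e-10). Of 6 other cytokinin, gibberellin and brassinosteroid genes none was higher, 5 were lower and 1 did not pass. The gibberellin receptor gene GID1C, for example, was lower (-1.26 ± 0.14 SE, adjusted p = 1.21e-07).

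Another 10 named members belong to no such group. Cpn60beta2, a chaperonin of chloroplasts, averaged 5905 ± 783 at 3W (SD, n = 8) and 645 ± 284 in blades (SD, n = 16). SBT1.3, a subtilase, ran from 3709 to 5337 with a median of 4891 at 3W, from 116 to 689.5 with a median of 314 at 4W and from 136 to 373 with a median of 253 at 5W, a fold of 16.1 between the means. Both kept a signal above 100 on all blade arrays. VPS2.2, of the ESCRT-III membrane-cutting complex, ran from 1198 to 1609 with a median of 1469 at 3W, from 24.1 to 84.0 with a median of 55.4 at 4W and from 9.92 to 42.2 with a median of 17.2 at 5W. Its difference between blade ages, -0.94, was close to the limit of 1 set by the rule. DI21, known as drought-induced, lay at the other end: it ran from 2840.2 to 4275 with a median of 3351 at 3W, from 60.7 to 209 with a median of 128 at 4W and from 134 to 392 with a median of 295 at 5W, higher at 5W by 0.98. NET1A, an actin-binding membrane protein, ran from 529 to 751 with a median of 642 at 3W and from 7.23 to 95.3 with a median of 40.2 in blades. HLL, a mitochondrial ribosomal protein needed in ovules, ran from 692 to 869 with a median of 794 at 3W and from 15.1 to 154 with a median of 84.9 in blades, and HMT-1, a homocysteine methyltransferase, ran from 387 to 569.9 with a median of 490.2 at 3W and from 9.18 to 119.6 with a median of 42.1 in blades. In each of these 3 genes the dimmest 3W array was more than 3 times as bright as the brightest blade array. scpl31, a serine carboxypeptidase-like gene, ran from 311 to 618 with a median of 394 at 3W and from 1.39 to 42.8 with a median of 5.76 in blades, CXE18, a carboxylesterase, from 366 to 530.0 with a median of 433 at 3W and from 3.08 to 56.0 with a median of 15.4 in blades, and ZCF125, to which no role is given here, from 322 to 589 with a median of 449 at 3W and from 2.44 to 48.3 with a median of 30.0 in blades. The last 3 were under 100 on every blade array. Of these 10 genes 7 were lower at 5W and 3 higher.

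The remaining lists hold one member, PYK10, and show what else differed by limma between 3W and blades, where 31.5% of all probe sets were higher and 27.9% lower. Of 8 genes of the stomatal lineage, trichomes and protoderm 6 were higher and 2 lower, led by STOMAGEN, a peptide that promotes stomata (3.40 ± 0.17 SE, adjusted p = 4.22e-13). Of 10 genes of the meristem, organ boundaries and leaf polarity 6 were higher, 3 lower and 1 did not pass. Of 5 procambium, cambium and phloem genes 4 were higher, and SWEET11, a sucrose exporter of phloem, was lower (-6.86 ± 0.13 SE, adjusted p = 8.34e-19). All 12 genes of photosystems, light harvesting and the Calvin cycle were lower, led by PIFI (-3.39 ± 0.09 SE, adjusted p = 9.79e-17). Of 10 plastid division and expression genes 4 were higher and 1 lower. Of 12 glucosinolate, flavonoid and indolic genes 6 were higher and 3 lower, among the higher ones the flavonoid genes CHIL (3.21 ± 0.22 SE, adjusted p = 8.31e-11) and DFR (2.73 ± 0.42 SE, adjusted p = 8.73e-06). Of 6 xylem genes 1 was higher, and of 4 cuticle genes 1 was higher and 2 lower. Of 2 root genes beside the member PYK10 0 passed, and of 3 seed and pollen genes 0 passed. Each list holds few of its genes, 153 in all 17 lists of 1363 symbols, so these counts cover small shares of the pathways.

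Of the 25 members of largest margin with 1 gene, 20 had a locus tag only, with margins of up to 6.36. Over all members with a gene in the reference that share was 82.6%, so it was not particular to large margins. AT4G29030 had a signal from 6873 to 9110.1 with a median of 7530.2 at 3W, from 7.35 to 67.6 with a median of 10.3 at 4W and from 3.74 to 18.7 with a median of 7.56 at 5W, AT2G33850 from 3558 to 6331 with a median of 4383 at 3W, from 1.00 to 33.8 with a median of 3.65 at 4W and from 1.00 to 34.8 with a median of 1.63 at 5W and AT2G28790 from 6768 to 10269.6 with a median of 8387 at 3W, from 102 to 167 with a median of 134 at 4W and from 17.0 to 203 with a median of 79.0 at 5W. In all 3 genes the dimmest 3W array lay far above the brightest blade array. AT5G55180 (from 4445 to 5879 with a median of 5282 at 3W and from 49.5 to 159 with a median of 93.9 in blades), AT1G62500 (from 2495 to 4602 with a median of 2946 at 3W and from 2.88 to 90.6 with a median of 30.1 in blades) and AT5G01870 (from 1449 to 2469.8 with a median of 1799 at 3W and from 1.85 to 50.1 with a median of 21.9 in blades) followed. AT1G62480 was the brightest in blades of the 20, from 10155 to 12589.6 with a median of 11230.0 at 3W, from 258 to 844 with a median of 456 at 4W and from 156 to 406 with a median of 261 at 5W, and with a fold of 29.7 it had the largest fold among the 127 members above 100 on all arrays, which ran from 3.50 to 29.7 with a median of 5.49. The other 13 were AT3G05600, AT1G29270, AT3G20260, AT3G13175, AT5G45700, AT1G10640, AT3G02640, AT3G53190, AT4G02850, AT2G14900, AT5G33370, AT4G11190 and AT3G12870, with median signals at 3W from 315 to 3771. All 20 were lower at 5W than at 4W, beside 62.2% of all members and 50.7% of all probe sets. This count was not repeated without the 4W replicate 2 arrays. Of the 20, 11 stayed under 100 on every blade array. Of the 15 largest margins over all members, 8 belonged to unnamed probe sets, which made up 44.1% of members and 38.4% of all probe sets. The largest, 258675_at, was singled out after its values were seen, and ran from 12769.7 to 18244 with a median of 13881 at 3W and from 3.47 to 49.6 with a median of 12.7 in blades.

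A distinct set of members was bright in blades as well. On all 16 blade arrays 53 members lay above 1000, of which 34 had 1 gene and none had a symbol, so no role is given to them. Their signals ran from 6301 to 35017 at 3W and from 1039.6 to 6219.8 in blades. The fold of 3W over blades was narrow, 3.50 to 8.20 with a median of 5.06, and no margin exceeded 2.14. AT2G47610 had the widest margin among those with 1 gene, with a signal from 10868 to 13166 with a median of 11701 at 3W, from 1450.1 to 2484 with a median of 2111 at 4W and from 1813 to 2511 with a median of 2321 at 5W. AT4G39200 had the largest fold, 8.20, and ran from 15811 to 35016 with a median of 22651 at 3W, from 2304 to 4465 with a median of 2806 at 4W and from 2330.3 to 3658 with a median of 2781 at 5W. AT1G73230 had the smallest, 3.50, and ran from 7571 to 9631 with a median of 7765 at 3W, from 2109 to 2572 with a median of 2274 at 4W and from 2204 to 2531 with a median of 2326 at 5W. Their groups lay close to each other without overlap, at values where the added 16 does not matter. AT2G27710 (from 12265 to 17697 with a median of 15624 at 3W and from 1910.4 to 3789.7 with a median of 2762 in blades) and AT2G27720 (from 16101 to 19184 with a median of 17390.1 at 3W and from 1909 to 4023 with a median of 3166 in blades) of this set are neighbours on chromosome 2, and whether their probe sets share targets was not tested. They were 1 of 3 pairs of neighbouring members among 230 genes, the others being AT1G19530 with AT1G19540 and AT5G02440 with AT5G02450. Members were spread over the 5 nuclear chromosomes, 1.65% of the measured genes on chromosome 1, 1.93% on 2, 2.23% on 3, 1.87% on 4 and 1.82% on 5, and 0 of the 69 measured plastid genes.

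Of these 53, 46 were higher at 5W than at 4W and 7 lower, with a median of 0.15. That count rested on the 4W replicate 2 arrays: without them 27 were higher and 26 lower, with a median of 0.00. Between the replicate 2 arrays of 5W and 4W 50 were higher and 3 lower, and between the replicate 1 arrays 17 were higher and 36 lower. Of the 161 members under 100 on all blade arrays, 47 were higher and 114 lower, with a median of -0.23, and of the other 217 members 70 were higher and 147 lower. Without the 4W replicate 2 arrays these counts were 53 and 108, and 64 and 153. Over all members 163 were higher and 268 lower, a median of -0.13, beside -0.01 over all probe sets. These counts were 190 and 241 after quantile normalization, and 162 and 269 after centring. The sets were made from the blade values after those values were seen, and the rule limits this difference to under 1, so no test is given. Increases below that limit included those of DI21 (0.98), AT3G05060 (0.93), AT4G12600 (0.84) and AT4G10450 (0.71). AT3G05060 had a signal from 366 to 791 with a median of 558 at 4W and from 814 to 1298 with a median of 1039 at 5W, and AT4G12600 from 531 to 853 with a median of 680.1 and from 917 to 1695 with a median of 1244, without overlap between the blade ages in either gene. All 3 measured genes of the nucleolus and ribosome synthesis list, none of them a member, were higher at 3W. RBL was higher by 1.62 ± 0.08 SE, adjusted p = 6.18e-13. The median difference between blade ages over the members was -0.19 with GSSG, -0.14 with GSH, -0.08 with NH4NO3 and -0.07 with water.

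**Figure D3:**
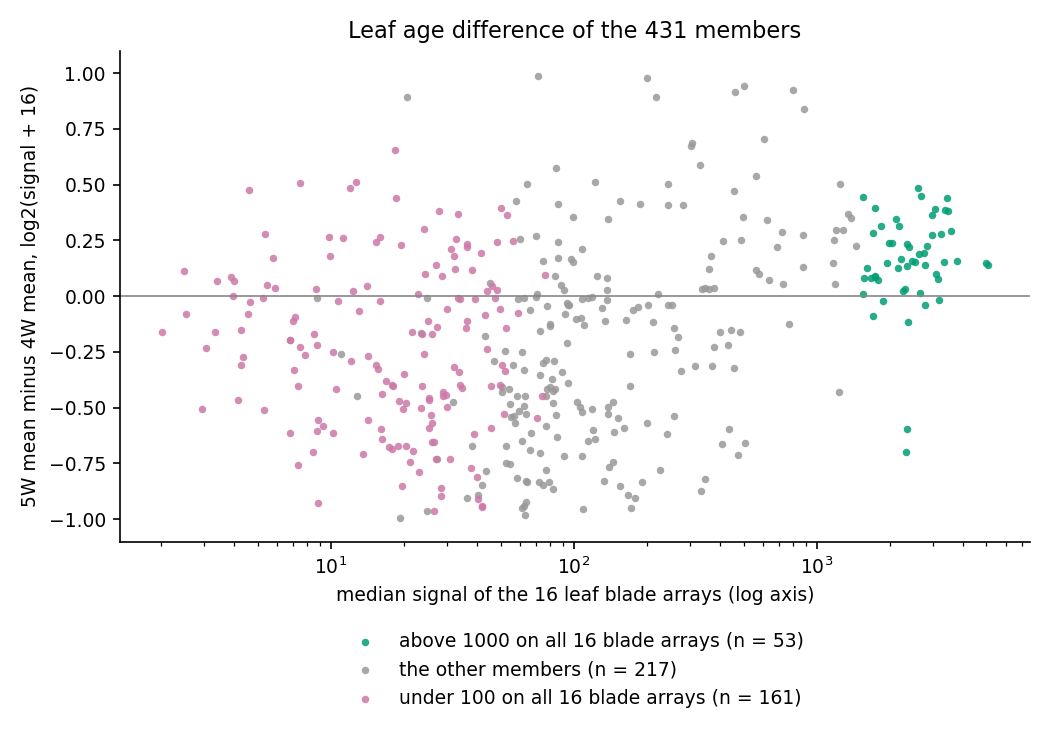
Difference of the 5W mean from the 4W mean on log2(signal + 16) for each of the 431 members, against its median signal on the 16 blade arrays (log axis). Members above 1000 on all blade arrays (green) lie mostly above 0, which did not hold without the 4W replicate 2 arrays (27 above and 26 below), and those under 100 (pink) lie mostly below; the rule keeps all within 1 of zero.

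At 3W the members varied less with the solution than in blades. The range between the means of the 4 solutions had a median of 0.23 on log2(signal + 16), beside 0.36 over all probe sets, and was under 0.5 for 399 members. At 4W and 5W it was 0.60 and 0.60, beside 0.51 and 0.50. The rule asks for 8 high arrays at 3W and so favours probe sets with little spread there, and most members were dim in blades, where spread on this scale is larger. The brightest blade array was one of 4W for 279 of 431 members (64.7%, beside 55.4% of all probe sets), most often replicate 2 with GSSG at 4W, with 80 members. Without that array the rule would take 461.

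At 3W no member passed the limma test of feeding. For each solution and for the mean of the 3 fed solutions against water, 0 of 431 passed, and 0% of all probe sets. At an unadjusted p under 0.05 there were 0 members with GSSG (0%), 2 with GSH (0.464%) and 0 with NH4NO3 (0%), beside 2.63%, 2.22% and 2.69% of all probe sets. The rule bounds how far any member's array may lie, so the members' shares depend on it, and the difference was not tested. Among members with 1 gene, the smallest p with GSSG was that of AT3G10610 (-0.32 ± 0.20 SE, adjusted p = 1), with GSH that of AT1G29250 (-0.33 ± 0.17 SE, adjusted p = 1) and with NH4NO3 that of EXPA15 (-0.40 ± 0.23 SE, adjusted p = 1), none of which passed. The group means of the division genes ran from 9.59 to 9.75 over the 8 arrays of 3W. Medians over the members were 0.01, 0.00 and -0.01 for the 3 solutions in the same order.

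**Figure D4:**
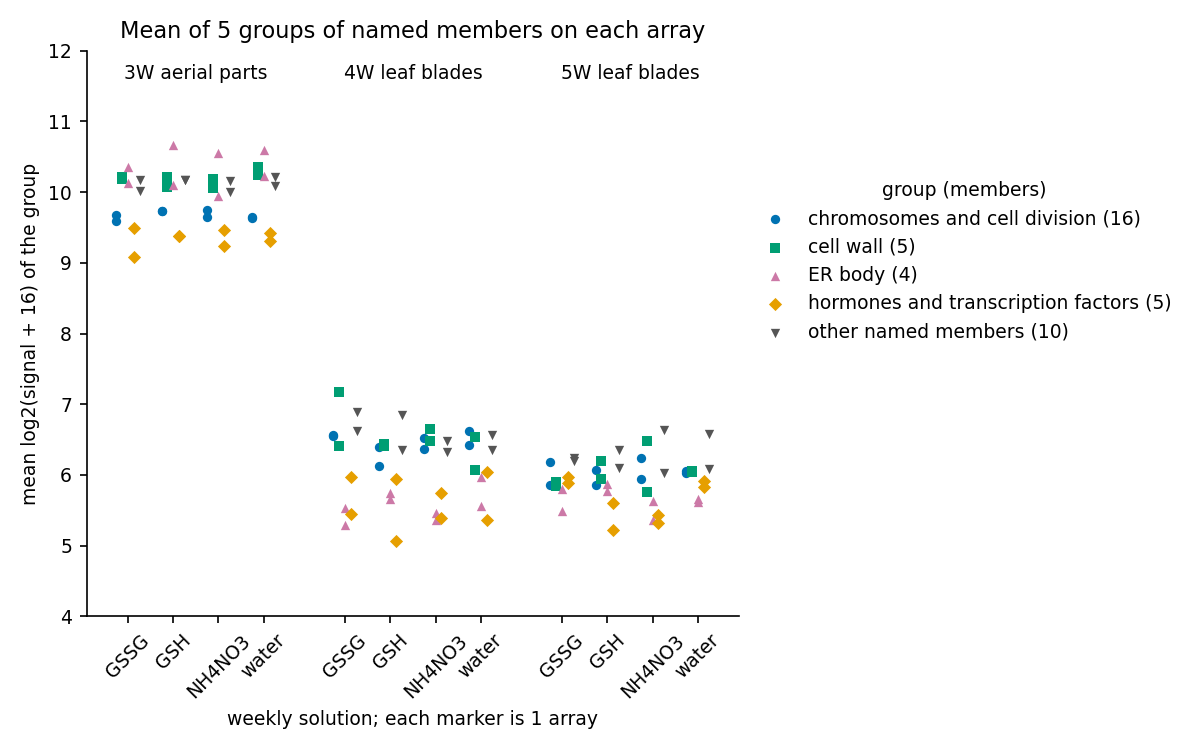
Mean log2(signal + 16) of the 5 groups of named members on each array, by harvest and weekly solution; each marker is 1 array and colours and shapes mark the groups. At 3W the division genes lie between 9.59 and 9.75 with all solutions, and in blades all groups lie between 5.07 and 7.17.

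In 4W blades 0 members passed with GSSG, GSH or NH4NO3, beside 0.0484%, 0.0044% and 0.0132% of all probe sets. At an unadjusted p under 0.05 there were 55, 44 and 46 members (12.8%, 10.2% and 10.7%), beside 9.83%, 8.16% and 6.59% of all probe sets, and the difference of these shares was not tested. JAL33, the lectin gene, had 25.2 and 7.37 with GSSG, 43.0 and 58.6 with GSH and 18.7 and 7.62 with NH4NO3, against 53.7 and 95.1 with water. With GSSG (-1.503 ± 0.42 SE, adjusted p = 0.218) and NH4NO3 (-1.62 ± 0.42 SE, adjusted p = 0.406) all its fed arrays lay below both water arrays, and it did not pass. AUR2 had 37.1 and 3.31 with NH4NO3, against 71.7 and 73.3 with water, and did not pass either (-1.47 ± 0.41 SE, adjusted p = 0.528). AT1G31710 differed with NH4NO3 by 1.09 ± 0.24 SE, adjusted p = 0.271, and AT1G06100 with GSH by -1.22 ± 0.33 SE, adjusted p = 0.345. For the mean of the fed solutions 0 members passed, beside 0.00879% of all. With a replicate block 3 unnamed members passed with GSSG, 3 with GSH and 0 with NH4NO3 (0.696%, 0.696% and 0%), beside 0.686%, 0.378% and 0.0528% of all probe sets. With GSSG 3 passed without GSSG replicate 1 and 1 without water replicate 1, GSH replicate 1 or GSH replicate 2, all at 4W, and with GSH 1 passed without water replicate 1.

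In 5W blades a few members passed. With GSSG 0 did (0.22% of all probe sets), with 30 (6.96%) at an unadjusted p under 0.05, beside 6.94% of all. With GSH 1 rose and 1 fell, where of all probe sets 1.02% rose and 0.47% fell (1.49% in all). With NH4NO3 2 rose and 2 fell, where of all probe sets 1.58% rose and 0.637% fell (2.22% in all). For the mean of the 3 fed solutions 3 rose and 1 fell, where of all probe sets 1.41% rose and 0.615% fell (2.02% in all). These shares of members, 0.464% with GSH, 0.928% with NH4NO3 and 0.928% for the mean, were below those of all probe sets, and this difference was not tested. The rule bounds how far any blade array of a member may lie, so the shares are not independent of it. With a replicate block the counts became 2, 14, 9 and 9 (0.464%, 3.25%, 2.09% and 2.09%), beside 0.796%, 3.94%, 4.75% and 4.51% of all probe sets. With only the arrays of the harvest compared they were 0 throughout.

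AT5G64110 had the largest change among members past a feeding test. Its signals at 5W were 34.8 and 14.9 with GSSG, 58.0 and 27.6 with GSH and 64.7 and 48.6 with NH4NO3, against 4.93 and 3.38 with water. At 4W they were 7.98 and 13.4 with GSSG, 4.39 and 11.8 with GSH and 2.3 and 22.3 with NH4NO3, against 25.7 and 63.7 with water. Fed blades thus lay above water at 5W and below it at 4W, without overlap in either harvest. At 5W it rose with NH4NO3 (1.84 ± 0.43 SE, adjusted p = 0.024) and in the mean of the fed solutions (1.44 ± 0.35 SE, adjusted p = 0.0335). At 4W the mean did not pass (-1.17 ± 0.35 SE, adjusted p = 0.436). The difference of the effects, 5W minus 4W, was 2.61 ± 0.49 SE, adjusted p = 0.0258, and it was the 1 member to pass that test, where 0.215% of all probe sets were higher and 0.0264% lower (0.242% in all). All these blade signals lay under 66, near the added 16, so the sizes depend on it. With 64 added in place of 16 each call of this gene was lost. With NH4NO3 the call was lost without any 1 of the 4 arrays compared (adjusted p up to 0.219). The mean's was lost without either water array or replicate 1 with GSSG, GSH or NH4NO3 at 5W (up to 0.358), and the difference's without either water array or GSH replicate 1 at 5W or water replicate 2 at 4W (up to 0.258). At 3W the gene ran from 441 to 808 with a median of 558.

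AT5G48310 rose in the mean of the fed solutions at 5W (1.505 ± 0.34 SE, adjusted p = 0.021). Its signals were 43.8 and 70.0 with GSSG, 81.7 and 40.3 with GSH and 35.0 and 64.6 with NH4NO3, against 6.05 and 11.5 with water, so all 6 fed arrays lay above both water arrays. At 4W they were 79.8 and 26.2 with GSSG, 83.8 and 60 with GSH and 62.3 and 112 with NH4NO3, against 56.8 and 21.6 with water, and the groups overlapped. With the single solutions at 5W it did not pass (adjusted p = 0.229 with GSSG, 0.059 with GSH and 0.0973 with NH4NO3). The call was lost without either water array at 5W, without GSH replicate 1 and without GSSG replicate 2. It was also lost with 64 as the value added to the signals. The water signals at 5W, 6.05 and 11.5, were low, so the size of this rise depends on the value added. AT5G10160 is measured well above 100. At 5W it had 329 and 307 with GSSG, 467 and 393 with GSH and 297 and 336 with NH4NO3, against 236 and 222 with water. It rose with GSH (0.86 ± 0.18 SE, adjusted p = 0.0203) and in the mean (0.58 ± 0.15 SE, adjusted p = 0.0468), again with all fed arrays above water. The first call was lost without either water array or GSH replicate 1 at 5W and with a prior without trend. The second was lost in 24 of 33 alternatives. AT2G35120 fell in the mean (-0.57 ± 0.13 SE, adjusted p = 0.0244), with 313 and 318 with GSSG, 334 and 301 with GSH and 367 and 348 with NH4NO3, against 455 and 544 with water, all fed arrays below water. Its call was lost without either water array, without GSSG replicate 2 and with a prior without trend. With GSSG and GSH alone it did not pass (adjusted p = 0.192 and 0.0582). These fed groups share their water arrays, so their values are not independent of each other.

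**Figure D5:**
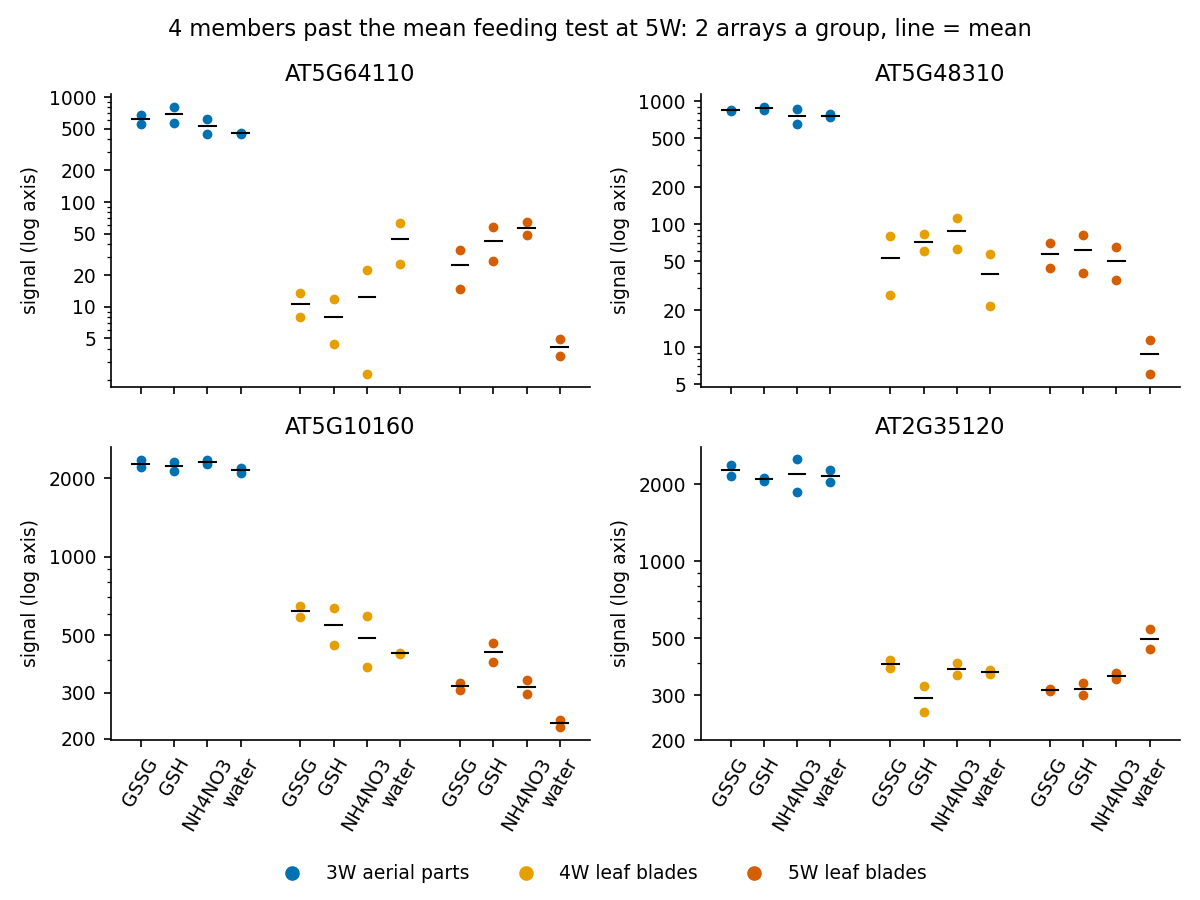
Signal (log axis) of the 4 members that passed the test of the mean of the fed solutions against water at 5W, for each harvest and solution; points are the 2 arrays of a group and the line is their mean. At 5W the fed arrays lie above water in 3 genes and below it in AT2G35120.

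The other members past the test were unnamed probe sets, singled out after their values were seen. With GSH, 264061_at fell (-0.87 ± 0.18 SE, adjusted p = 0.0168), with 244 and 320.0 at 5W against 520.1 and 528 with water. With NH4NO3, 262312_at rose (1.67 ± 0.40 SE, adjusted p = 0.0312), with 1130.5 and 544 against 364 and 150.3, where replicate 1 was the higher of both pairs. 248150_at fell (-1.34 ± 0.26 SE, adjusted p = 0.00734), with 28.8 and 30.9 against 112 and 89.5, and 259690_at fell (-0.89 ± 0.22 SE, adjusted p = 0.0347), with 78.3 and 75.1 against 146 and 167. The call of 264061_at was lost without either water array or GSH replicate 1 and with a prior without trend. That of 262312_at was lost without NH4NO3 replicate 1 or water replicate 2, with a prior without trend and with a robust prior. That of 248150_at was lost without replicate 1 of either group, and that of 259690_at in 14 of 33 alternatives. Among the named division genes ASF1B came closest with NH4NO3, with 166 and 121 against 73.0 and 58.5 (0.96 ± 0.26 SE, adjusted p = 0.0612), and passed with a replicate block (adjusted p = 0.048). None of the 16 division, 5 wall, 4 ER body, 5 hormone and 10 other named members passed in any of the 15 feeding contrasts. The effects of feeding at 4W and 3W differed for 0 members (0% of all), and at 5W and 3W for 0 (0.369% of all), with 3.02% and 5.34% of members at an unadjusted p under 0.05, beside 5.26% and 8.18% of all.

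Of the 53 members bright in blades, 0 passed the test with any solution at either blade age. With a replicate block 1 rose with GSH at 4W, and with GSH at 5W 5 fell, among them AT1G29250 (-0.54, adjusted p = 0.0192) and AT3G53890 (-0.45, adjusted p = 0.0364). With that block 0.378% of all probe sets passed with GSH at 4W and 3.94% at 5W, in either direction. At 4W 52 of 53 were higher with GSH than with water, by a median of 0.20, beside -0.07 over all probe sets. At 5W 50 of 53 were lower with GSH, by a median of -0.28, beside -0.02. Other solutions leaned the same way in part: at 4W 40 of 53 were higher with NH4NO3 and 28 with GSSG, and at 5W 42 of 53 were lower with GSSG and 31 with NH4NO3. These share their water arrays. Under quantile normalization these medians were 0.16 and -0.30, and under centring 0.30 and -0.27. The median signal of the 53 at 5W was 2344 and 2788 with GSSG, 2194 and 2332 with GSH and 2375 and 2795 with NH4NO3, against 2805 and 2819 with water. At 4W it was 2446 and 2062 with GSSG, 2830.1 and 2214 with GSH and 2626 and 2157 with NH4NO3, against 2508 and 1958 with water. At 4W replicate 1 was the higher of the pair in all 4 groups, by more than the median difference between GSH and water, so that the GSH and water arrays overlap there. Within each replicate number GSH was higher than water at 4W, and so was NH4NO3, while GSSG was higher in replicate 2 only. At 5W the arrays of all fed solutions, not only those with GSH, lay below both water arrays. The set was formed after its values were seen, so its counts and medians get no test. At an unadjusted p under 0.05 there were 3 of the 53 with GSH at 4W and 11 at 5W, beside 8.16% and 12.1% of all probe sets.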

How the data were processed

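The deposited values are signal intensity per probe set on a linear scale for 24 arrays, made by the authors with Affymetrix Expression Console, per the submitters' processing notes. For its version and summary algorithm, nothing is given in the sources used here. From 100 ng of total RNA per sample, 2 arrays per group were made. The labels do not say that replicates came from separate pots, so the p-values cover only how far these arrays differ, which can be technical spread. The 64 control probe sets were left out. Because most members are dim in blades, values were analysed as log2(signal + 16), which understates differences of dim genes. Folds are given only for probe sets above 100 on all arrays, as ratios of mean signals.

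One linear model of the 12 groups was fitted to all 22746 probe sets with limma 3.58.1 in R 4.3.3 (lmFit, contrasts and eBayes with trend, 12 residual degrees of freedom), and p-values were adjusted by the Benjamini-Hochberg method over all probe sets in each contrast. The threshold was an adjusted p of 0.05. The fitting script was tested on simulated data. Tables were made with Python 3.11.15, pandas 2.3.3, numpy 2.4.6 and scipy 1.17.1, and plots with matplotlib 3.10.9. Probe sets were named through the platform annotation and RefSeq names of TAIR10.1. No genome build is named for the values, so no coordinates are given.

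Replicate numbers are shared by all groups. Deviations of samples with the same number correlated at 0.23 to 0.38 over the 6 pairs of groups at 4W and 0.11 to 0.38 at 5W, so the numbers were taken to pair samples there. The main tests did not use this pairing, and only the alternative with a replicate block did. At 3W the correlations were 0.04 to 0.25, with 5 of 6 over 0.1. Alternatives were another pseudocount, quantile normalization, centring on medians, a filter on dim probe sets, other priors, a replicate block, only the arrays compared, and each array left out.

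The members, the gene lists and the tests were chosen with earlier results of these data known. Named are the 25 members with 1 gene of largest margin, members in the 17 gene lists, the 5 probe sets on each side of the margin, and in each feeding contrast up to 5 called members a direction or, with fewer than 3 called, the 3 of smallest p. The remaining members with a symbol, their relatives, the neighbours and the genes taken as examples from the lists, from the bright members and from the blade ages were chosen after their values were seen.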

Additional observations from a re-analysis of the deposited data

Results flagged for a closer look

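AT5G64110 had effects of feeding that differed between the blade ages. The mean of the 3 fed solutions minus water was 1.44 at 5W and -1.17 at 4W on log2(signal + 16), and the test of the difference gave 2.61 ± 0.49 SE, with an adjusted p of 0.0258 by limma. All 6 fed arrays lay above both water arrays at 5W and below both at 4W, at signals from 2.3 to 64.7. No group had more than 2 samples, so single samples were not tested for standing apart.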

How the results depend on the processing

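No feeding difference of a named gene reversed under any alternative, but the majority among probe sets called between 3W and blades did, with 5967 higher and 8258 lower after centring and 6700 and 6902 after quantile normalization, in place of 7176 and 6344. The rule took 431 members, 835 with a margin of 1 and 208 with a margin of 2. Applied to quantile-normalized values it took 419, of which 394 were among the 431, and after centring 322, all among them. Without 1 array it took 423 to 461. With a replicate block, which uses the pairing of replicate numbers, the counts of members past the feeding test were 3 with GSSG and 3 with GSH at 4W, and 2 with GSSG, 14 with GSH, 9 with NH4NO3 and 9 for the mean of the fed solutions at 5W, and 2 for the difference between 5W and 4W, in place of 0, 0, 0, 2, 4, 4 and 1. It changed no other count of members. With only the arrays compared the 5W counts with GSH, with NH4NO3, for the mean and for the difference were 0, at fewer residual degrees of freedom. At 5W with GSH, pseudocount 1 gave 4, leaving out dim probe sets 5 and a prior without trend 0. For the mean, pseudocount 1 gave 9, pseudocount 64 gave 1 and leaving out dim probe sets 7. For the difference, pseudocount 64 gave 0. A robust prior gave 1 with GSSG at 4W. The causes were not tested. Leaving the 4W replicate 2 arrays out of the leaf age differences was chosen after the data were seen, and ended the majority of higher values among the 53 members bright in blades (27 higher and 26 lower).

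Without single arrays the counts were 0 to 3 with GSSG and 0 to 1 with GSH at 4W, 0 to 1 with GSSG, 0 to 4 with GSH, 0 to 6 with NH4NO3 and 1 to 6 for the mean at 5W, 0 to 2 for the difference between 5W and 4W, 0 to 1 for that between 5W and 3W, and 0 for the other contrasts. Over all probe sets 13035 to 13623 differed between 3W and blades. The 2 arrays a group and dim signals limit what could be detected, with 39.5% to 43.7% of all probe sets under 100 on blade arrays.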
